A study of Rattus norvegicus with 6 samples.

Results

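The SLC25 family holds the carriers that move metabolites across the inner mitochondrial membrane. Its members were taken as the genes of the deposited expression table whose symbol was Slc25a followed by a number, which gave 41 of 19616 genes. Of these, 39 averaged 0.1 FPKM or more in the 6 rats and were tested, while Slc25a18 and Slc25a54 lay under that level. FPKM are fragments counted relative to transcript length and to all mapped fragments, so levels can be set side by side between genes. Values of single rats are given in the order CL5, CL6, CL7 for control livers and FL2, FL5, FL12 for fibrotic livers.

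Livers of 3 fibrotic male SD rats (the FL group: FL2, FL5 and FL12) were compared with livers of 3 control male SD rats (the CL group: CL5, CL6 and CL7). FL rats had received CCl4 mixed 1:1 with olive oil intraperitoneally over 5 weeks, with 2 injections of 2 mL/kg in each week, and CL rats an equal volume of olive oil. The animals weighed 200 ± 20 g at purchase and their age is not given in the sources used here. Total RNA of whole liver tissue was depleted of ribosomal RNA and sequenced. The liver label was checked on Alb, the albumin gene of hepatocytes, whose lowest FPKM was 24149 (FL2) and highest 33392 (CL5).

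Each carrier folds from 3 similar repeats and usually exchanges a substrate of the matrix for another of the cytosol. Through these exchanges ADP enters and ATP leaves, phosphate is taken up, reducing equivalents are shuttled and carbon leaves for lipid and glucose synthesis. In hepatocytes the carriers for ornithine and for aspartate and glutamate also link the mitochondrial and cytosolic steps of the urea cycle.

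The family ranged from the most abundant member, Slc25a47, at a mean of 139 ± 41.7 FPKM in CL and 94.8 ± 33.5 FPKM in FL (SD, n = 3), to Slc25a18, listed at 0 in every FL rat. After Slc25a47 came Slc25a5, Slc25a39, Slc25a3, Slc25a15, Slc25a13, Slc25a20, Slc25a23, Slc25a1 and Slc25a10 in order of mean FPKM over the 6 rats. These 10 genes made up 87.8% of the summed FPKM of the family in CL5, 84.3% in CL6 and 82.5% in CL7, against 80.5% in FL2, 81.6% in FL5 and 80.1% in FL12. The share was thus a little lower in each FL rat than in each CL rat. The summed FPKM of the 41 members was 691 in CL5, 636 in CL6, 584 in CL7, 683 in FL2, 642 in FL5 and 606 in FL12. The groups overlapped in this sum, with means of 637 ± 53.1 in CL and 644 ± 38.1 in FL (SD, n = 3). As a share of all FPKM in the table the family stood at 0.223%, 0.187% and 0.185% in the CL rats and at 0.221%, 0.236% and 0.223% in the FL rats.

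Compared with the CL group, 5 of the 39 members tested were higher in FL at an adjusted p under 0.05 (limma, Benjamini-Hochberg over 14864 genes), which is 12.8% of them against 16.9% of all genes tested. These were Slc25a4, Slc25a24, Slc25a43, Slc25a42 and Slc25a10. With limma, 0 members were lower, against 1.94% of all genes. At an unadjusted limma p under 0.05, 11 members were higher (28.2%, against 31.5% of all genes) and 1, Slc25a13, was lower (2.56%, against 4.04%). Slc25a4, Slc25a24 and Slc25a43 also passed a fold change of 2 and are called DEGs here, 3 of 39 members against 9.29% of all genes; 0 members were DEGs in the lower direction, against 0.935%. The fold change fell under 2 for Slc25a24 with a pseudocount of 1 (log2 0.70) and quantile normalization (0.73), and for Slc25a43 with a pseudocount of 1 (0.67), median scaling (0.99) and quantile normalization (0.66). In 10 members every FL rat lay above every CL rat (25.6%, against 35.7% of all genes), in 2 every FL rat lay below (5.13%, against 4.78%), and in 27 the groups overlapped. All p-values measure the spread between these 6 rats.

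The median log2 fold change of FPKM + 0.1 was 0.17 over the members and 0.29 over all genes tested, and 16 members lay above the median of all genes and 23 below it. The gap depended on level: among genes of at least 10 FPKM on average both medians were 0.12, and among those of at least 1 FPKM they were 0.17 and 0.24. The sign of the members' median depended on scaling between rats: it was -0.048 after median scaling and -0.024 after quantile normalization, which moved the median of all genes down by 0.21 and 0.33. Over all genes, 2518 were higher and 288 lower without scaling, against 1301 and 533 once medians were scaled and 778 and 536 after quantile normalization. With median scaling 3 members were called higher (Slc25a4, Slc25a24 and Slc25a43; 8.75% of all genes) and 2 lower (Slc25a13 and Slc25a16; 3.59%). With quantile normalization Slc25a4 alone was called higher (5.23% of all genes) and Slc25a16 alone lower (3.61%). With a rat left out, 3 members were called higher by limma without CL5 (8.65% of all genes), 3 without CL6 (8.80%), 2 without CL7 (6.08%), 5 without FL2 (21.5%), 3 without FL5 (6.04%) and 4 without FL12 (8.64%), so the calls among all genes moved as well.

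**Figure D1:**
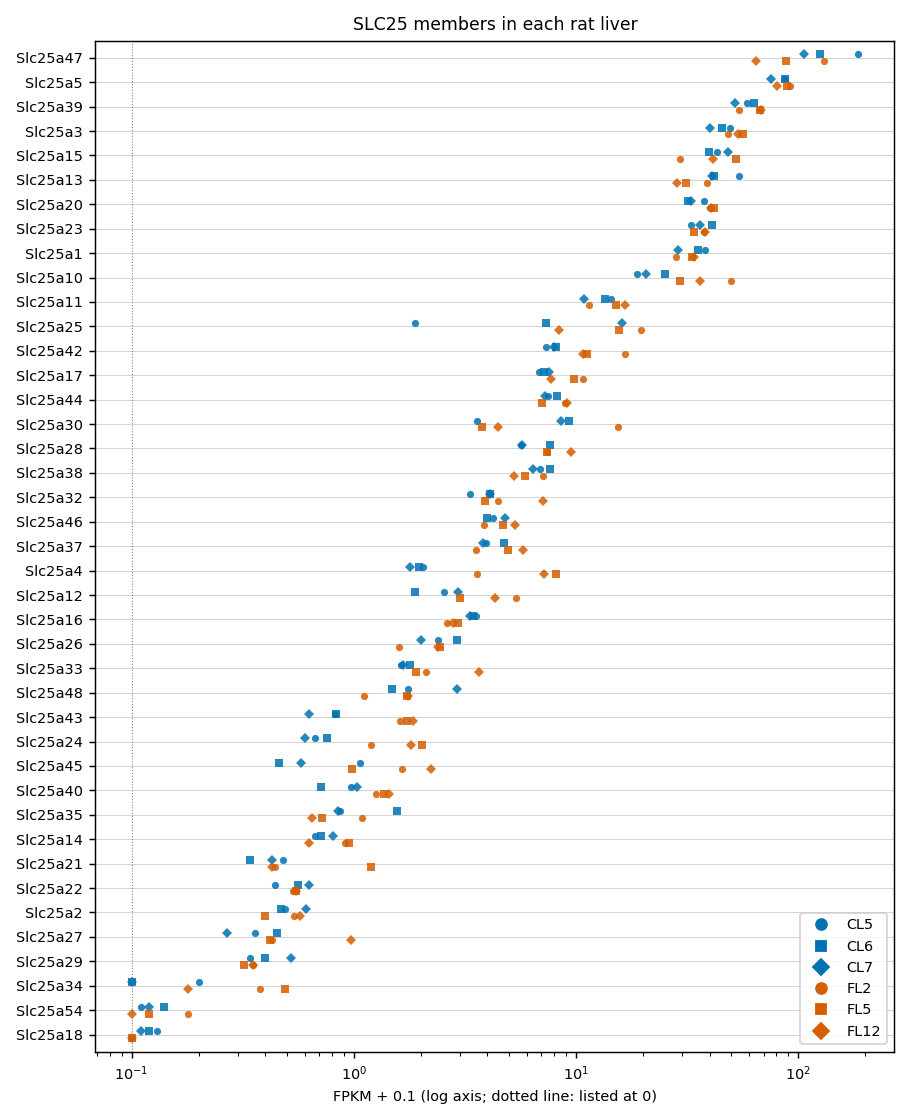
FPKM + 0.1 (log axis) of the 41 SLC25 members in each of the 3 CL rats (blue) and 3 FL rats (orange), ordered by mean FPKM, with each rat a point and the dotted line at genes listed at 0. Slc25a24 and Slc25a43 sit in the lower part of the range and Slc25a4 near its middle (rank 22 by mean). These members have all FL points to the right of all CL points, while most abundant members overlap between groups.

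Slc25a4 and Slc25a5 encode the ADP/ATP translocases ANT1, the isoform of heart and muscle, and ANT2, the isoform of liver and growing cells. Slc25a4 was at 1.95, 1.86 and 1.70 FPKM in the CL rats and at 3.47, 8.07 and 7.12 FPKM in the FL rats. The CL rats lay close together and all FL rats lay above them, with FL2 nearer to the CL group than FL5 and FL12. On average it rose from 1.84 ± 0.127 to 6.22 ± 2.43 FPKM (SD, n = 3), with a log2 fold change of 1.62 (SE 0.29, 95% interval 0.94 to 2.30, limma with Benjamini-Hochberg adjustment, adjusted p = 0.011), which is 1.33 above the median of all genes. Its adjusted p by limma was 0.0502 when genes under 0.1 FPKM were kept in the test, and without a rat it ranged from 0.00133 (without FL2) to 0.0497 (without CL7).

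Slc25a5 was at 87.5, 87.5 and 75.4 FPKM in the CL rats and at 92.2, 88.9 and 80.7 FPKM in the FL rats. The groups overlapped, and the log2 fold change of 0.07 had a 95% interval of -0.22 to 0.35; with median scaling its sign turned, to -0.16. Within a rat, the FPKM of Slc25a4 divided by that of Slc25a5 was 0.0223, 0.0212 and 0.0225 in the CL rats and 0.0376, 0.0908 and 0.0882 in the FL rats. Slc25a5 was thus the main translocase transcript in every rat, and the ratio, which a scaling factor for each rat does not change, was higher in each FL rat than in each CL rat. The log2 ratio, taken here and below from FPKM + 0.1, was -5.43 ± 0.05 in CL and -3.87 ± 0.71 in FL (SD, n = 3), a difference of 1.56 (exact permutation test, two-sided, p = 0.1, which is the smallest p that 3 rats against 3 can give; 0.157 after Benjamini-Hochberg adjustment over 11 pairs).

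In these bulk livers, fewer or more cells of a type and less or more RNA per cell cannot be told apart. Among 9 genes of stellate cells or myofibroblasts, 8 were tested and 5 were higher at an adjusted p under 0.05 by limma (Col1a1, Col3a1, Des, Rgs5 and Pdgfrb; 62.5%, against 16.9% of all genes), with a median log2 fold change of 1.89. Their summed FPKM was 89.3, 88.9 and 82.7 in the CL rats and 221, 568 and 502 in the FL rats. The most abundant was Col3a1, a fibrillar collagen, and Col1a2 was below 0.1 FPKM on average. Acta2 and Tagln were higher in each FL rat than in each CL rat but were not called (limma, Benjamini-Hochberg adjusted p = 0.0609 and 0.0621). Lrat was not called either, with a log2 fold change of -0.073 and overlap between groups. The part of these cells in the differences of Slc25a4 and Slc25a24 was not tested.

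Slc25a24, Slc25a25 and Slc25a23 encode calcium-regulated carriers that exchange Mg-ATP for phosphate and so set the adenine nucleotide content of the matrix. Slc25a24 was at 0.57, 0.66 and 0.50 FPKM in the CL rats and at 1.10, 1.92 and 1.71 FPKM in the FL rats. Each FL value exceeded each CL value. On average it rose from 0.577 ± 0.0802 to 1.58 ± 0.426 FPKM (SD, n = 3), with a log2 fold change of 1.28 (SE 0.26, limma with Benjamini-Hochberg adjustment, adjusted p = 0.0149), or 0.99 above the median of all genes. The limma adjusted p was 0.064 without CL7, 0.064 without FL5, 0.056 without FL12 and 0.0688 with quantile normalization.

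Slc25a23 was more abundant than Slc25a24 and Slc25a25, at 32.8, 41.0 and 36.3 FPKM in the CL rats and 37.6, 34.0 and 38.0 FPKM in the FL rats. The groups overlapped and the 95% interval of the log2 fold change ran from -0.28 to 0.28. The FPKM ratio of Slc25a24 to Slc25a23 was 0.0174, 0.0161 and 0.0138 in the CL rats and 0.0293, 0.0564 and 0.045 in the FL rats. The ratio was higher in each FL rat, and the log2 ratio rose by 1.28 on average, or by 1.42 when 0.1 is not added to FPKM (exact permutation p = 0.1 and 0.157 adjusted over the pairs).

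Slc25a25 varied most among rats of a group of all members tested. It was at 1.79, 7.22 and 16.0 FPKM in the CL rats and at 19.6, 15.5 and 8.28 FPKM in the FL rats. CL7 lay above FL5 and FL12, so the groups overlapped, and the log2 fold change of 1.17 had a 95% interval of -0.44 to 2.79. It was 0.33 without CL5 and 1.88 without CL7. The SD of its log2 values within groups was 1.19, against a median of 0.25 over the members and 0.25 over all genes tested; Slc25a30, with 0.95, came next. Its ratio to Slc25a23 overlapped between groups as well, from 0.0545 in CL5 to 0.521 in FL2 (exact permutation p = 0.2 and 0.275 adjusted).

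Slc25a42 and Slc25a16 are related carriers, the former an exchanger of coenzyme A for adenine nucleotides and the latter linked to the coenzyme A supply of the matrix. Slc25a42 was at 7.22, 8.07 and 7.85 FPKM in the CL rats and at 16.5, 11.1 and 10.6 FPKM in the FL rats. All FL rats lay above all CL rats, FL2 the highest. On average it rose from 7.71 ± 0.441 to 12.7 ± 3.23 FPKM (SD, n = 3), with a log2 fold change of 0.69 (SE 0.18, limma with Benjamini-Hochberg adjustment, adjusted p = 0.0326), or 0.40 above the median of all genes (0.29, against 0.12 among genes of at least 10 FPKM). It was not called with median scaling (limma adjusted p = 0.168), with quantile normalization (0.19), with no filter (0.0806), without the trend (0.0671), or without CL5 (0.0972), CL6 (0.0773), CL7 (0.0986) or FL5 (0.0699).

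Slc25a16 was at 3.44, 3.35 and 3.22 FPKM in the CL rats and at 2.52, 2.85 and 2.71 FPKM in the FL rats. Every FL rat lay below every CL rat, and the spread within groups was the smallest of all members tested, at 0.07 on the log2 scale. The log2 fold change of -0.30 did not pass the threshold (limma, Benjamini-Hochberg adjusted p = 0.152), but the gene was called lower with median scaling (-0.52, adjusted p = 0.0322) and with quantile normalization (-0.69, adjusted p = 0.0191). The FPKM ratio of Slc25a16 to Slc25a42 was 0.476, 0.415 and 0.41 in the CL rats and 0.153, 0.256 and 0.255 in the FL rats. The ratio was lower in each FL rat than in each CL rat, and the log2 ratio fell by 0.99 on average (exact permutation p = 0.1 and 0.157 adjusted).

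Slc25a43, a carrier grouped with the adenine nucleotide carriers whose substrate is not settled, was at 0.72, 0.73 and 0.53 FPKM in the CL rats and at 1.51, 1.64 and 1.74 FPKM in the FL rats. The FL rats lay close together and all above the CL rats. On average it rose from 0.66 ± 0.113 to 1.63 ± 0.115 FPKM (SD, n = 3), with a log2 fold change of 1.20 (SE 0.21, limma with Benjamini-Hochberg adjustment, adjusted p = 0.00979), or 0.91 above the median of all genes. It kept its call without each rat in turn and lost it with quantile normalization (limma adjusted p = 0.0676).

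The remaining carriers of this role did not pass the threshold. Slc25a17, the peroxisomal carrier of coenzyme A and related cofactors, was at 6.75, 7.05 and 7.47 FPKM in the CL rats and at 10.7, 9.66 and 7.64 FPKM in the FL rats. All FL rats lay above all CL rats, FL12 only just, and the log2 fold change was 0.38 (limma, Benjamini-Hochberg adjusted p = 0.108; 0.0489 without FL12). Slc25a3, the phosphate carrier, was at 49.3, 45.2 and 40.1 FPKM in the CL rats and at 48.2, 56.6 and 53.4 FPKM in the FL rats. FL2 lay below CL5, so the groups overlapped (log2 fold change 0.23, 95% interval -0.06 to 0.53). Of the 10 tested members of this role, Slc25a43 with its unsettled substrate among them, 4 were called higher by limma (40.0%, against 16.9% of all genes) and 0 lower (1.94% of all genes). Their median log2 fold change was 0.53, against 0.29 over all genes. With so few genes these counts say little. Of the 4 called, Slc25a42 kept its call under 6 of 14 alternatives, Slc25a24 under 10, and Slc25a4 and Slc25a43 each under 13. With quantile normalization Slc25a4 alone of this role was called higher, and Slc25a16 was called lower.

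**Figure D2:**
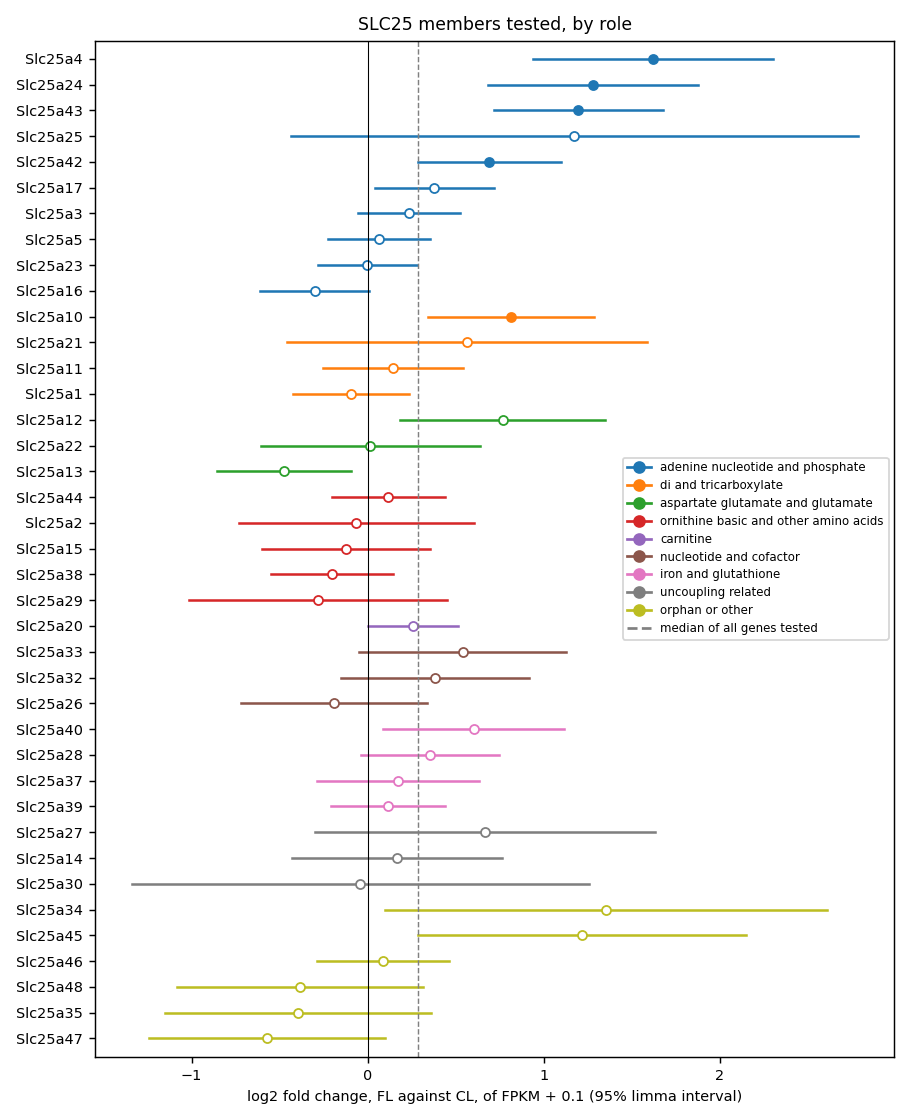
log2 fold change of FPKM + 0.1, FL against CL, of the 39 SLC25 members tested, with 95% limma intervals, colored by role; filled points were called at an adjusted p under 0.05 and the dashed line is the median of all genes (0.29). Of the 5 filled points 4 are in the adenine nucleotide and phosphate role. Several members with values near 0 change sign with median scaling or quantile normalization, which lower the median of all genes by 0.21 and 0.33.

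Among carriers of di- and tricarboxylates, Slc25a10, the dicarboxylate carrier that exchanges malate or succinate for phosphate, was called. It was at 18.7, 25.0 and 20.6 FPKM in the CL rats and at 50.0, 29.4 and 36.0 FPKM in the FL rats. Every FL liver had more than every CL liver, and FL2 the most. On average it rose from 21.4 ± 3.23 to 38.4 ± 10.5 FPKM (SD, n = 3), with a log2 fold change of 0.81 (SE 0.20, limma with Benjamini-Hochberg adjustment, adjusted p = 0.0314), or 0.53 above the median of all genes (0.29, against 0.12 among genes of at least 10 FPKM). It was not called with median scaling (limma adjusted p = 0.127), with quantile normalization (0.0866), with no filter (0.0878), without the trend (0.0661), or without CL5 (0.0977), CL6 (0.051), CL7 (0.106) or FL12 (0.0802).

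Slc25a11, the oxoglutarate carrier of the malate-aspartate shuttle, was at 14.4, 13.4 and 10.8 FPKM in the CL rats and at 11.4, 15 and 16.5 FPKM in the FL rats. The groups overlapped (log2 fold change 0.14, 95% interval -0.26 to 0.54; -0.080 with median scaling and -0.041 with quantile normalization). The FPKM ratio of Slc25a10 to Slc25a11 was 1.30, 1.87 and 1.91 in the CL rats and 4.40, 1.96 and 2.19 in the FL rats. The ratio was higher in each FL rat, FL5 only just above CL7 (exact permutation p = 0.1 and 0.157 adjusted). Slc25a1, the citrate carrier that supplies cytosolic acetyl-CoA, was at 38.1, 35.4 and 28.7 FPKM in the CL rats and at 28.1, 33.2 and 34.1 FPKM in the FL rats. The groups overlapped, and so did those of Slc25a21, the oxodicarboxylate carrier, at 0.24 to 0.38 FPKM in CL and 0.33 to 1.10 FPKM in FL.

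The aspartate/glutamate carriers of the malate-aspartate shuttle had log2 fold changes of opposite sign, and neither passed the threshold. Slc25a13, which encodes citrin, the liver isoform, was at 54.3, 41.6 and 41.1 FPKM in the CL rats and at 39.0, 31.3 and 28.4 FPKM in the FL rats. Every FL rat lay below every CL rat, by little between CL7 and FL2. The log2 fold change was -0.47 (95% interval -0.85 to -0.09; limma, Benjamini-Hochberg adjusted p = 0.0827); it was called lower with median scaling (-0.70, adjusted p = 0.0464) and without FL2 (-0.60, adjusted p = 0.0357). Slc25a12, which encodes aralar, the isoform of brain and muscle, was at 2.44, 1.79 and 2.86 FPKM in the CL rats and at 5.25, 2.92 and 4.23 FPKM in the FL rats. All FL rats lay above all CL rats, FL5 only just above CL7, and the log2 fold change of 0.77 did not pass the threshold (limma, Benjamini-Hochberg adjusted p = 0.0700).

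The FPKM ratio of Slc25a12 to Slc25a13 was 0.045, 0.0431 and 0.0696 in the CL rats and 0.135, 0.0933 and 0.149 in the FL rats. The liver isoform thus prevailed in every rat, and the ratio was higher in each FL rat than in each CL rat. The log2 ratio was -4.23 ± 0.37 in CL and -2.99 ± 0.35 in FL (SD, n = 3), a difference of 1.24 (exact permutation p = 0.1 and 0.157 adjusted). The glutamate carrier Slc25a22 was at 0.34, 0.46 and 0.53 FPKM in the CL rats and at 0.43, 0.45 and 0.45 FPKM in the FL rats, within the range of the CL rats. Its counterpart Slc25a18 was at 0.03, 0.02 and 0.01 FPKM in the CL rats and listed at 0 in the 3 FL rats, so no ratio of these genes was formed.

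Of 5 tested carriers of ornithine, basic and other amino acids 0 were called by limma in either direction (16.9% of all genes were higher and 1.94% lower), and 0 had an unadjusted p under 0.05 (31.5% and 4.04%). With so few genes these counts say little. Their median log2 fold change was -0.12, below the 0.29 of all genes. Slc25a15, the ornithine carrier of the urea cycle, was at 43.0, 39.8 and 48.4 FPKM in the CL rats and at 29.4, 52.5 and 41.4 FPKM in the FL rats. FL2 was the lowest and FL5 the highest of the 6 rats, and without FL2 the log2 fold change turned from -0.12 to 0.10. Slc25a2, the other ornithine carrier, stayed between 0.30 and 0.51 FPKM, at 0.00571 to 0.015 of the Slc25a15 level, and this ratio overlapped between groups (exact permutation p = 0.9). Slc25a38, the glycine carrier needed for heme synthesis, ranged from 6.28 to 7.52 FPKM in CL and from 5.15 to 7.01 FPKM in FL, Slc25a44, the carrier of branched-chain amino acids, from 7.17 to 8.08 and from 6.92 to 9 FPKM, and Slc25a29, the basic amino acid carrier, had means of 0.32 ± 0.0917 and 0.24 ± 0.0173 FPKM (SD, n = 3).

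Slc25a20, the carnitine/acylcarnitine carrier that brings fatty acyl groups to beta-oxidation, was at 37.7, 31.9 and 33.0 FPKM in the CL rats and at 40.0, 41.9 and 40.6 FPKM in the FL rats. FL rats were all above CL rats by a small margin. The log2 fold change was 0.26 (95% interval 0.00 to 0.51; limma, Benjamini-Hochberg adjusted p = 0.138), against a median of 0.12 over all genes of at least 10 FPKM. Among carriers of nucleotides and cofactors, Slc25a32 (folate or FAD) ranged from 3.23 to 4 FPKM in CL and from 3.79 to 7.04 FPKM in FL, and Slc25a26 (S-adenosylmethionine) from 1.90 to 2.82 and from 1.5 to 2.34 FPKM. Both overlapped between groups. Slc25a33, a pyrimidine nucleotide carrier, was at 1.53, 1.69 and 1.56 FPKM in the CL rats and at 2.02, 1.81 and 3.57 FPKM in the FL rats, above CL in each FL rat and highest in FL12 (limma, Benjamini-Hochberg adjusted p = 0.171).

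The iron carriers Slc25a37 and Slc25a28 (mitoferrin 1 and 2) and the glutathione carriers Slc25a39 and Slc25a40 had 4 of 4 log2 fold changes above 0 without scaling, as had 77.9% of all genes tested. By limma 0 of them were called in either direction (16.9% of all genes were higher and 1.94% lower). Only Slc25a40 was higher at an unadjusted limma p under 0.05 (31.5% of all genes). With median scaling the log2 fold changes of Slc25a37 (-0.048) and Slc25a39 (-0.11) turned negative. Slc25a39 was at 58.7, 63.6 and 52.2 FPKM in the CL rats and at 54.2, 67.3 and 68.0 FPKM in the FL rats, with overlap. Slc25a40 was at 0.87, 0.61 and 0.93 FPKM in the CL rats and at 1.16, 1.27 and 1.34 FPKM in the FL rats, with each FL rat above each CL rat (log2 fold change 0.60; limma, Benjamini-Hochberg adjusted p = 0.0952). The FPKM ratio of Slc25a39 to Slc25a40 was 67.5, 104 and 56.1 in the CL rats and 46.7, 53.0 and 50.8 in the FL rats. It was lower in each FL rat, and the log2 ratio fell by 0.49 on average (exact permutation p = 0.1 and 0.157 adjusted). The size of this difference leans on CL6, whose log2 ratio was 6.49, against 5.92 in CL5 and 5.67 in CL7.

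Slc25a28 was at 5.59, 7.56 and 5.60 FPKM in the CL rats and at 7.28, 7.30 and 9.39 FPKM in the FL rats, and Slc25a37 ranged from 3.71 to 4.67 in CL and from 3.46 to 5.67 FPKM in FL. The ratio of Slc25a37 to Slc25a28 ran from 0.475 in FL2 to 0.685 in CL5 and overlapped between groups (exact permutation p = 0.3 and 0.367 adjusted). Since mitoferrin 1 is abundant in erythroid cells, red cell genes were read as well. Of 13 listed, 10 were in the table and 7 tested, with 0 called by limma (16.9% of all genes were higher and 1.94% lower). Their summed FPKM was 92.3, 164 and 116 in the CL rats and 131, 50.7 and 52.9 in the FL rats, with Hbb the most abundant and Gata1 and Klf1 at or near 0. Their part in the values of Slc25a37 was not tested.

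Slc25a14, Slc25a27 and Slc25a30 are relatives of the uncoupling proteins, and 0 of the 3 was called by limma (16.9% of all genes were higher and 1.94% lower) or had an unadjusted p under 0.05 (31.5% and 4.04%). Slc25a30 was at 3.47, 9.22 and 8.50 FPKM in the CL rats and at 15.4, 3.69 and 4.37 FPKM in the FL rats. FL2 held the highest value of the 6 rats and the other FL rats lay under CL6 and CL7, and the log2 fold change of -0.04 became 0.21 without CL6, 0.15 without CL7, 0.34 without FL5, 0.22 without FL12, -0.48 without CL5 and -0.68 without FL2. Slc25a14 lay between 0.53 and 0.85 FPKM and Slc25a27 between 0.17 and 0.87 FPKM. The ratio of Slc25a14 to Slc25a30 overlapped between groups, from 0.0527 in FL2 to 0.23 in FL5 (exact permutation p = 0.8 and 0.88 adjusted).

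Slc25a47, an orphan carrier made mainly in hepatocytes, was at 186, 125 and 107 FPKM in the CL rats and at 131, 88.6 and 64.9 FPKM in the FL rats. The groups overlapped through FL2, which lay above CL6 and CL7. The log2 fold change was -0.57 (95% interval -1.24 to 0.10, limma with Benjamini-Hochberg adjustment, adjusted p = 0.195), which is 0.86 under the median of all genes (0.29, against 0.12 among genes of at least 10 FPKM). It ranged from -0.84 to -0.33 over the 14 alternatives, and the gene was not called under any of them. Slc25a47 was the first of the family in both groups by mean, but in FL5 Slc25a5 (88.9 FPKM) and in FL12 Slc25a5 (80.7) and Slc25a39 (68.0) lay above it. Its part was 21.6 ± 4.68% of the summed FPKM in CL and 14.6 ± 4.29% in FL (SD, n = 3).

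Slc25a45, a relative of Slc25a47, was at 0.97, 0.36 and 0.48 FPKM in the CL rats and at 1.55, 0.88 and 2.13 FPKM in the FL rats. FL5 lay under CL5, so the groups overlapped, and the log2 fold change of 1.22 did not pass the threshold (limma, Benjamini-Hochberg adjusted p = 0.0714). The FPKM ratio of Slc25a47 to Slc25a45 was 192, 347 and 223 in the CL rats and 84.5, 101 and 30.5 in the FL rats. Each FL rat lay below each CL rat, and the log2 ratio fell by 1.79 on average (1.95 when 0.1 is not added), the largest difference of the 11 ratios (exact permutation p = 0.1 and 0.157 adjusted).

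Other orphan carriers were low. Slc25a46, a protein of the outer membrane linked to mitochondrial fission and lipid transfer, ranged from 3.86 to 4.71 FPKM in CL and from 3.75 to 5.22 FPKM in FL. Slc25a48 ranged from 1.38 to 2.82 and from 1.01 to 1.66 FPKM, and Slc25a35 from 0.75 to 1.47 and from 0.55 to 0.99 FPKM. Slc25a34 was at 0.10 FPKM in CL5 and listed at 0 in CL6 and CL7, against 0.28, 0.39 and 0.08 FPKM in the FL rats. Slc25a54, next to Slc25a24 on chromosome 2 with 0 RefSeq genes between them, had means of 0.0233 in CL and 0.0333 FPKM in FL.

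**Figure D3:**
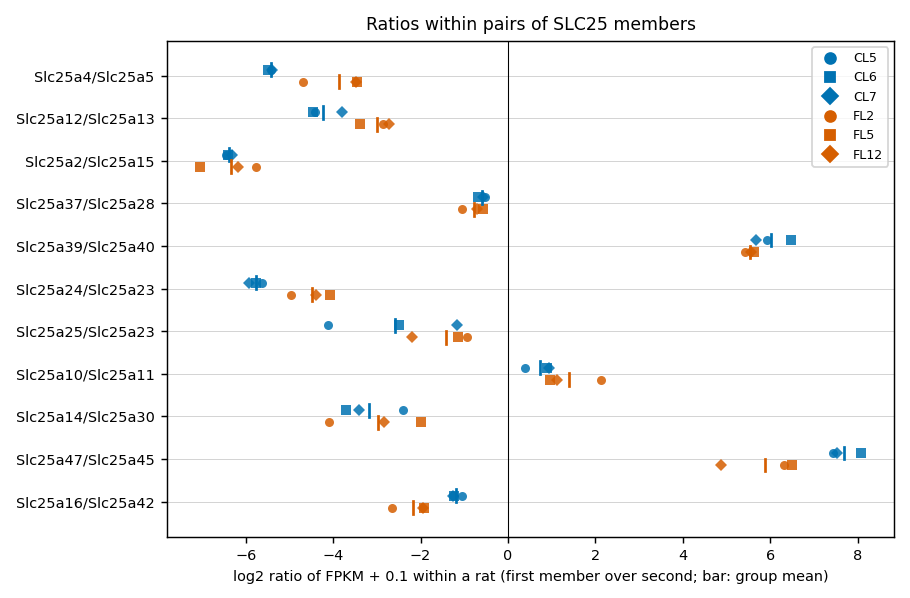
log2 ratio of FPKM + 0.1 within each rat for the 11 pairs of SLC25 members compared, with CL rats in blue, FL rats in orange and group means as bars. In 7 of the 11 pairs the groups lie apart, against 30.1% of all pairs of members tested.

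In all, 11 of 14 planned pairs could be compared, and in 7 the groups did not overlap, 4 higher and 3 lower in FL (63.6%, against 30.1% of all 741 pairs of members tested and 34.1% of all pairs of genes tested). These shares were not tested against each other, and some pairs have a member in common. With 3 rats a group the exact permutation test cannot give a p under 0.1, so 0 of the 11 ratios could pass 0.05, and the smallest adjusted value was 0.157. The ratios within a rat bear on the balance between members and do not need a common scale between rats.

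Family members that carry other symbols were read beside those of the rule. Of 5 rows for 4 such genes 2 were called higher (40.0%, against 16.9% of all genes) and 0 lower by limma: Ucp2, uncoupling protein 2, and Mtch1, a carrier relative of the outer membrane. Ucp2 was at 6.64, 9.18 and 9.14 FPKM in the CL rats and at 22.9, 25.9 and 19.3 FPKM in the FL rats. All FL rats lay far above all CL rats (log2 fold change 1.44; limma, Benjamini-Hochberg adjusted p = 0.0035), and Ucp2 kept its call under all 14 alternatives. Of 8 macrophage genes tested, 5 were called higher by limma (Cd68, Marco, Csf1r, Lyz2 and Gpnmb; 62.5%, against 16.9% of all genes), with summed FPKM of 100.1, 97.3 and 97.9 in the CL rats and 306, 365 and 246 in the FL rats and Gpnmb the most abundant over the 6 rats. Clec4f, Cd163 and Adgre1 were not called, and Clec4f, the most abundant of the list in CL, had a log2 fold change of -0.017. The part of these cells in the value of Ucp2 was not tested. Mtch1 had a log2 fold change of 0.53 (limma, Benjamini-Hochberg adjusted p = 0.0217) and was not called without CL5, CL6, CL7, FL5 or FL12 (0.0548 to 0.0787) or with either scaling (0.103 and 0.122). Mtch2, the most abundant of the 5 rows, ranged from 59.1 to 74.5 FPKM in CL and from 49.3 to 63.1 FPKM in FL.

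Other genes of carrier biology were set against all genes, of which 16.9% were called higher and 1.94% lower. Of 16 other inner-membrane carriers 2 were called higher (12.5%) and 1 lower (6.25%) by limma, with a median log2 fold change of 0.06. These were Sfxn3 (1.25), Abcb8 (0.59) and the serine carrier Sfxn1 (-0.43), which was at 24.4, 27.8 and 26.9 FPKM in the CL rats and at 17.6, 21.2 and 20.1 FPKM in the FL rats; each of the 3 lost its call without CL5, without CL7, without FL5 and without FL12 (limma adjusted p from 0.0511 to 0.132), Sfxn3 and Sfxn1 also without CL6 (0.073 and 0.123) and Sfxn1 also without FL2 (0.0635). The most abundant of this list was Mpc1, a subunit of the pyruvate carrier, from 61.7 to 66.8 FPKM in CL and from 48.1 to 73.8 FPKM in FL.

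Of 14 rows for the import machinery of carriers, 2 were called higher (14.3%) and 0 lower by limma, namely Tomm22 (0.39) and a row of Timm8a1 (0.95), both not called without CL6, CL7, FL5 or FL12 (limma adjusted p from 0.0747 to 0.118) and Tomm22 also without CL5 (0.0945). Of 23 enzymes fed by the carriers 2 were called higher (8.70%) and 0 lower: Cpt2 (0.38), of carnitine-dependent fatty acid uptake, and Crat (0.79), carnitine acetyltransferase; both lost the call without CL6, CL7, FL5 or FL12 (limma adjusted p from 0.0533 to 0.111), Cpt2 also without CL5 (0.0981). Sfxn3, Abcb8, Tomm22, this row of Timm8a1, Cpt2 and Crat were also not called with either scaling. Ass1, of the urea cycle, was the most abundant enzyme, at 759, 852 and 845 FPKM in the CL rats and at 636, 750 and 329 FPKM in the FL rats. Every FL rat lay below every CL rat, FL12 by the most, but Ass1 was not called (limma, Benjamini-Hochberg adjusted p = 0.214). Of 10 users of iron in heme and iron-sulfur synthesis 0 were called by limma in either direction, and Alas1, the most abundant, ranged from 53.4 to 97.1 FPKM. A list of 13 genes joined mitochondrial proteins with transcription regulators of mitochondrial genes. Of these Esrra, a regulator, alone was called (7.69% of them, log2 fold change 0.91, limma, Benjamini-Hochberg adjusted p = 0.00912). The median log2 fold change of the list was 0.21. Hspa9, the most abundant, ranged from 66.7 to 75.9 FPKM in CL and from 70.7 to 86.6 FPKM in FL.

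Clock genes that peak with Dbp differed more between the groups than any other list read here: 10 of 11 were called higher by limma (90.9%, against 16.9% of all genes), with a median log2 fold change of 2.12. Of the 10, Hlf lost its call under 8 of 14 alternatives, both scalings among them, and Per2 and Tef each under 2. Dbp, the most abundant by mean over the 6 rats, was at 0.46, 0.91 and 0.81 FPKM in the CL rats and at 25.6, 27.1 and 31.8 FPKM in the FL rats. In CL it was not the most abundant, with a mean of 0.727 FPKM against 5.09 FPKM for Tef. The hour of sampling is not given in the sources used here, so a difference in clock phase and the treatment cannot be told apart for any SLC25 member.

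Markers of further cell types were read in the same way. Of 10 hepatocyte rows 0 were called by limma in either direction (16.9% of all genes were higher and 1.94% lower), with a median log2 fold change of 0.08. At the highest levels the trended fit gives wide intervals (-2.63 to 1.87 for Alb), so this count does not show that these rows stayed the same. Alb, Ttr and Hnf4a were lower in each FL rat than in each CL rat and Apoa1 was higher in each. The summed FPKM of the hepatocyte rows was 44920, 42368 and 42939 in the CL rats and 33581, 35735 and 35390 in the FL rats. Alb alone was at 33392, 31431 and 31992 FPKM in the CL rats and at 24149, 25052 and 25209 FPKM in the FL rats, so the hepatocyte sum mostly follows Alb. Of 6 cholangiocyte genes Spp1 alone was called (16.7%, against 16.9% of all genes), which macrophages also make, and it lost its call without CL7, FL5 or FL12 (limma adjusted p from 0.0516 to 0.0537) and with no filter (0.0611). Of 5 endothelial genes tested 2, Stab2 and Vwf, were called higher (40.0%). Cdh5, Lyve1 and Kdr were not called, and Kdr, the most abundant over the 6 rats, had a log2 fold change of -0.21. In FL the mean of Lyve1 was above that of Kdr (21.3 against 19.0 FPKM). Of 5 lymphocyte genes tested Ptprc (20%), the most abundant, was called higher, and of 6 cycling genes Mki67 (16.7%), the most abundant. By limma, 0 of 2 adipocyte genes and 0 of 1 skeletal muscle gene tested were called. Mki67 lost its call under 11 of 14 alternatives (limma adjusted p up to 0.157), Vwf under 9, both with either scaling and when any rat but FL2 was left out, and Stab2 without CL7 (0.0576). Ptprc is made by all leukocytes, macrophages included, and ranged from 3.12 to 3.25 FPKM in CL and from 8.12 to 10.2 FPKM in FL, while Cd3d, Cd3e, Nkg7 and Cd79a were not called, so the lymphocyte sum mostly follows Ptprc. In CL5, CL6, CL7, FL2, FL5 and FL12 the summed FPKM was 5.75, 10.6, 6.32, 12.7, 68.7 and 42.4 for the cholangiocyte genes, 61.3, 63.3, 55.8, 78.5, 68.9 and 75.0 for the endothelial, 4.52, 4.65, 5.07, 11.1, 13.2 and 10.2 for the lymphocyte and 2.81, 5.13, 3.19, 3.95, 18.2 and 15.4 for the cycling genes. Spp1 alone was at 0.37, 2.81, 0.74, 7.34, 60.6 and 31.1 FPKM in the same order, so the rise of the cholangiocyte sum mostly follows Spp1. Of the cholangiocyte genes not called, Krt7 and Krt19 had log2 fold changes of -0.82 and -0.014, and those of Sox9, Cftr and Epcam were above 0. Cidea reached at most 5.10 FPKM and Tnnt3 at most 0.31 FPKM, and Mb was listed at 0 in every rat. The part of these cells in the values of the SLC25 members was not tested.

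The members lie on 17 chromosomes. Slc25a43 and Slc25a5 are both on the X chromosome with 5 RefSeq genes between them, and Slc25a43 was called while Slc25a5 was not. Slc25a29 and Slc25a47 lie on chromosome 6 with 2 RefSeq genes between them, at means of 0.32 and 139 FPKM in CL. RefSeq also lists pseudogenes named after 9 of the members, 9 of them for Slc25a5 and 8 for Slc25a39, and since FPKM were made from uniquely placed reads, reads that also match near-identical copies would be dropped and the FPKM of these genes may be too low.

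Promoter sequences of RefSeq (build GRCr8) were matched by symbol for 36 of the 41 members; there was no entry for Slc25a26, Slc25a30, Slc25a32, Slc25a37 and Slc25a46. In the 250 bases before the start, the median GC content was 58.4% over the members and 51.2% over 33469 promoters. GGGCGG, on either strand, was found in 20 of the 36 members (55.6%) and in 30.5% of all promoters. CCAAT, on either strand, was found in 21 members (58.3%) and 34.0% of all promoters. TATAAA was found in 2 members (5.56%, Slc25a38 and Slc25a48) against 12.9%, CACGTG in 2 (5.56%, Slc25a2 and Slc25a33) against 5.59%, and CGCATGCG in 1 (2.78%, Slc25a44) against 1.47%; none of these strings contains another.

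The 150 bases before the start are shown for the 5 called members, for Slc25a5 as the abundant counterpart of Slc25a4, and for Slc25a47 as the most abundant member, 5′ to 3′ on the strand of the gene, with GGGCGG or its complement CCGCCC and CCAAT or its complement ATTGG in capitals. All lie on the plus strand of GRCr8: Slc25a4 at chr16:52805371-52805520, Slc25a5 at chrX:120897466-120897615, Slc25a10 at chr10:106264246-106264395, Slc25a24 at chr2:199449275-199449424, Slc25a42 at chr16:19247824-19247973, Slc25a43, from 1 of its 2 entries, at chrX:120843031-120843180, and Slc25a47 at chr6:133531591-133531740. Within these stretches Slc25a4 holds 2 CCAAT and 0 GGGCGG, Slc25a24 and Slc25a5 each hold 2 GGGCGG and 0 CCAAT, Slc25a10 holds 2 GGGCGG and 1 CCAAT, Slc25a42 holds 1 and 2, Slc25a47 holds 1 CCAAT, and Slc25a43 holds neither. The called members thus share no string of the 2 marked here, and a match is a description of letters only.
Slc25a4: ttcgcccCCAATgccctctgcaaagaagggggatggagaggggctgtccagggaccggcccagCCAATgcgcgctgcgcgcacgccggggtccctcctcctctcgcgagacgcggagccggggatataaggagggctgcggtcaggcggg
Slc25a5: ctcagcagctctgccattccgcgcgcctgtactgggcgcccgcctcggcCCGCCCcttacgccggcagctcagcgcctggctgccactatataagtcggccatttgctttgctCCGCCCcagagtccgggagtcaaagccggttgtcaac
Slc25a10: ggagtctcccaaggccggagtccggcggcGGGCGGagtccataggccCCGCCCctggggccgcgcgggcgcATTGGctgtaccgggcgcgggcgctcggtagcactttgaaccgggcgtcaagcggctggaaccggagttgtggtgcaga
Slc25a24: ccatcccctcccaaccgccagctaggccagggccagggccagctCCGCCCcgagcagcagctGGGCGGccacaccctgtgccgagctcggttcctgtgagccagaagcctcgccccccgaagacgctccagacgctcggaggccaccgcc
Slc25a42: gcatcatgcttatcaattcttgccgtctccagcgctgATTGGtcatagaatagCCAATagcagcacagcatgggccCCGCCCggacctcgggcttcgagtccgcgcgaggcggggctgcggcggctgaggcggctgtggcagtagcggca
Slc25a43: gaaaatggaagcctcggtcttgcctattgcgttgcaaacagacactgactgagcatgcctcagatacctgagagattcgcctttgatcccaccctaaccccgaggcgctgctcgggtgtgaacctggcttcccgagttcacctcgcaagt
Slc25a47: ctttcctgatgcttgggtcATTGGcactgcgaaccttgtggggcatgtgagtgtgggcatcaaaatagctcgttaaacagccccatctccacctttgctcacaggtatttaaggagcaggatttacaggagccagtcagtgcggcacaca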

How the data were processed

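Liver RNA of 3 CL and 3 FL rats was analysed from the FPKM the authors deposited, given to 2 decimals. Per the study's methods, the authors discarded reads with more than 2 N bases, trimmed the rest, aligned them with TopHat2 (4 mismatches allowed), and made FPKM from uniquely placed reads. The genome is named GRCh38 in the submitters' processing notes although gene identifiers are those of rat, and the annotation release and the use of strand are not given in the sources used here. The table has 2 further columns of values that match no sample, and they were not used.

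The mapped depth of each rat is unknown, since the table holds no counts. The smallest common step among the 114 rows named U6 was 0.21, 0.32 and 0.25 FPKM in the CL rats and 0.31, 0.28 and 0.31 FPKM in the FL rats, which puts the relative depth at 1.00, 0.656, 0.84, 0.677, 0.75 and 0.677 in that order.

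FPKM + 0.1 were taken to log2, and the 14864 genes averaging 0.1 FPKM or more were fitted with limma 3.58.1 (trend) in R 4.3.3, two-sided, with Benjamini-Hochberg adjustment over all of them; the fit was first tested on simulated data. Fold changes are on this scale, which understates those of low genes. A call is an adjusted p under 0.05, and DEGs also have a fold change of at least 2. Ratios within pairs were compared by an exact permutation test over the rats. Tables were made with Python 3.11.15 and pandas 2.3.3. Alternatives were pseudocounts of 1 and 0.01, no filter and a mean of at least 1 FPKM, median scaling (factors 0.889 to 1.12), quantile normalization, a limma fit lacking the trend, a robust prior, the fold threshold, and each rat left out.

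The genes named were the called members, the 10 most abundant members, those with groups apart and a fold change of at least 2, members of the pairs, members at 0, and from context and marker lists the called genes and the most abundant; other members are named to account for the family. Members and lists were chosen with earlier results of these data known. RefSeq symbols matched for 41 of 41 members, all on the chromosome of the table. The planned comparison of protein sequences was not done.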

Additional observations from a re-analysis of the deposited data

How the results depend on the processing

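Under pseudocounts of 1 and 0.01, a mean of at least 1 FPKM and a robust prior, the count of members called higher stayed at 5 and that of members lower at 0. The count of members higher was 2 with no filter on low values, 3 with median scaling, 1 with quantile normalization, 3 without the trend and 3 with a fold change of at least 2; with each rat left out it ranged from 2 to 5. The share of all genes called higher, 16.9% in the main fit, moved as well, to 7.87% with no filter, 8.75% with median scaling, 5.23% with quantile normalization, 13.8% without the trend, and 9.29% with the fold threshold, and ranged from 6.04% to 21.5% with a rat left out. The count of members lower was 2 with median scaling, 1 with quantile normalization, and from 0 to 1 with each rat left out. The median log2 fold change of the members (0.17) was -0.048 with median scaling, -0.024 with quantile normalization and from 0.12 to 0.27 with each rat left out. Median scaling takes out a shift common to all genes of a rat. Quantile normalization moved the log2 fold changes of members by unequal amounts, for example from 0.016 to -0.59 for Slc25a22 and from 0.23 to 0.16 for Slc25a3. Leaving out a rat lowers the number of samples. Other causes of these changes were not tested.

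Signs turned only for members that were not called. With median scaling the log2 fold change was -0.16 for Slc25a5, -0.11 for Slc25a39, -0.080 for Slc25a11, -0.10 for Slc25a44, -0.13 for Slc25a46, -0.048 for Slc25a37, -0.028 for Slc25a14 and -0.17 for Slc25a22. With quantile normalization it was -0.041 for Slc25a11, -0.14 for Slc25a44, -0.23 for Slc25a46, -0.14 for Slc25a37, -0.44 for Slc25a14, -0.024 for Slc25a21 and -0.59 for Slc25a22. With each rat left out it ranged from -0.0062 to 0.12 for Slc25a5, from -0.32 to 0.10 for Slc25a15, from -0.079 to 0.081 for Slc25a23, from -0.68 to 0.34 for Slc25a30, from -0.021 to 0.21 for Slc25a46, from -0.33 to 0.0073 for Slc25a26, from -0.13 to 0.13 for Slc25a22 and from -0.16 to 0.094 for Slc25a2. The log2 ratio difference ranged from -0.22 to 0.41 for Slc25a2/Slc25a15 and from -0.28 to 0.77 for Slc25a14/Slc25a30; the other 9 ratios kept their direction under all alternatives run.

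No paired analysis was made, since the rats were divided at random into the groups and the study describes no pairing between them. With 3 rats a group, unknown mapped depth, no scaling stated by the authors and whole tissue, small differences cannot be resolved.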
